A study of Mus musculus with 8 samples.

Results

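The NF-κB subunits and the inhibitors that hold them back were followed in bone marrow-derived macrophages (BMDM). The 10 genes listed were *Nfkb1*, *Nfkb2*, *Rel*, *Rela* and *Relb* for the subunits, *Nfkbia*, *Nfkbib*, *Nfkbie* and *Nfkbiz* for the IκB family, and *Tnfaip3*. The list was set by membership of the pathway, but it was chosen with earlier results of these data known. Of the 10, 9 had a probe set annotated to them alone, among 18183 genes with such a probe set, and *Nfkb1* was not analysed here. The brightest such probe set of each gene, by its mean over the arrays, was read, and any others served as a check. BMDM came from C57Bl/6 mice (C57BL6/J in the study's methods), 2 wild type (WT) and 2 lacking miR-155 (miR-155-/-), and their marrow was frozen, thawed and grown for 7 days in medium with 15% L929-conditioned supernatant, a source of M-CSF. The 4 groups of 2 arrays were miR-155-/-(LPS + IL-10), miR-155-/-(LPS), WT(LPS + IL-10) and WT(LPS). Every culture received LPS (100 ng/ml, 24 h), so there was no unstimulated level, and the LPS + IL-10 cultures were given IL-10 (20 ng/ml) 5 min before it. The labels give the WT mice as female and the miR-155-/- mice as male, so genotype and sex cannot be told apart in any comparison between genotypes. The study's methods describe marrow from female littermates, which differs from these labels.

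NF-κB is a family of dimeric transcription factors that LPS switches on through Toll-like receptor 4. IκB proteins bind the dimers and keep them in the cytoplasm until the IκB kinase (IKK) complex marks the inhibitor for destruction, and the freed dimers then turn on inflammatory genes. Several inhibitor and subunit genes are themselves NF-κB targets, which gives the pathway its feedback. IL-10 dampens the inflammatory output of LPS-treated macrophages, and miR-155 is a microRNA that LPS induces and IL-10 restrains.

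The microRNA missing from the miR-155-/- cells is given first, since every comparison between genotypes turns on it, with its seed (bases 2 to 8) in capitals.
mmu-miR-155-5p, chr16:84714143-84714165, strand +: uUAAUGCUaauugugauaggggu

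The RefSeq promoter table (GRCm38.p6) held 7 of the 9 measured genes, all but *Relb* and *Nfkbiz*. A match to the κB consensus site, the 10-base sequence that NF-κB dimers bind, was sought on both strands in the 250 bases before the most upstream start. It was found for 5 of the 7 (71.4%), and for 3.74% of the 27025 genes in that table. The 130 bases just before the start are printed below 5′ to 3′ on the strand of the gene, with matches in capitals, for the 5 genes with a match and for *Nfkbib*, which had none although it passed the test in 2 comparisons. *Rela* had none either. In *Nfkb2* and *Rel* a pair of matches overlaps and forms a single capital run of 11 bases.
Nfkb2, chr19:46304607-46304736, strand +: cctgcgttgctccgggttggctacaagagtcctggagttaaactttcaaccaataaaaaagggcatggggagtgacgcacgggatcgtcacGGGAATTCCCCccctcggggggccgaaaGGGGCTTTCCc
Rel, chr11:23770970-23771099, strand -: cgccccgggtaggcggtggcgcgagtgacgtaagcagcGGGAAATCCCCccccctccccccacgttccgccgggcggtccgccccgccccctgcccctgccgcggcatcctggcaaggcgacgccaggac
Nfkbia, chr12:55492648-55492777, strand -: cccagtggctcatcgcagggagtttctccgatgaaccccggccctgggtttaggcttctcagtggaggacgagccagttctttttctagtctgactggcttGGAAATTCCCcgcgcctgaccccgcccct
Nfkbie, chr17:45555570-45555699, strand +: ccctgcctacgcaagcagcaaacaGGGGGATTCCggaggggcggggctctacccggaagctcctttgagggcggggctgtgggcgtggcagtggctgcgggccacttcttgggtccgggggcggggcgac
Tnfaip3, chr10:19015411-19015540, strand -: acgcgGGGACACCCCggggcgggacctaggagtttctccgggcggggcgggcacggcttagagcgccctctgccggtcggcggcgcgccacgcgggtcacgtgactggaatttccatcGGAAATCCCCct
Nfkbib, chr7:28766645-28766774, strand -: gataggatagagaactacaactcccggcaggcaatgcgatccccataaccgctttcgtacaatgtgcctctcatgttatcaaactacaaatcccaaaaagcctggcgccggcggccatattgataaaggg
A match says only that these letters are present, and binding was not measured.

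**Figure D1:**
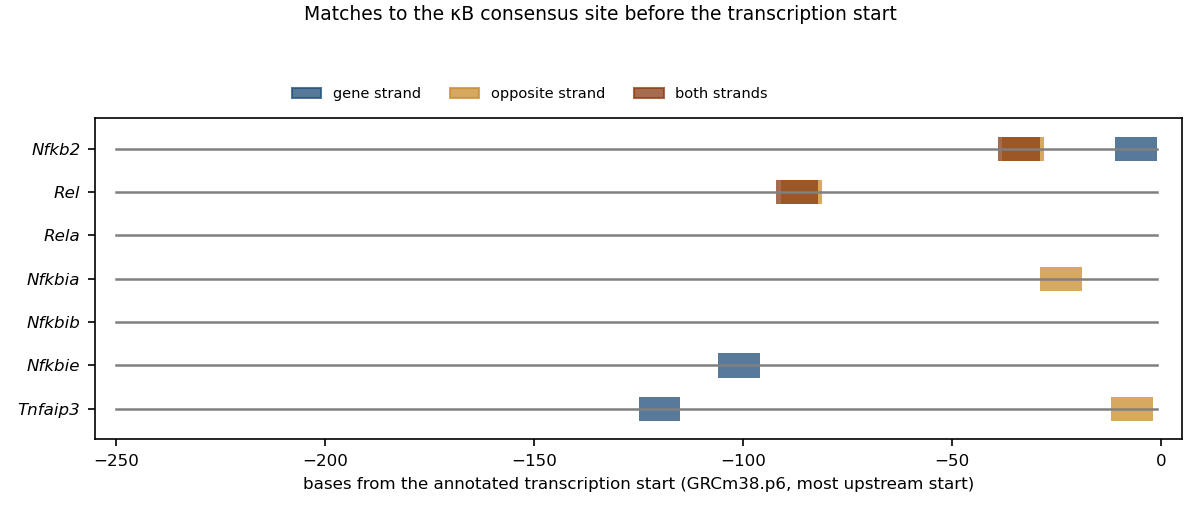
Position of matches to the κB consensus site (boxes of 10 bases, coloured by strand) in the 250 bases before the most upstream annotated start of 7 genes; the horizontal axis is the distance from the start in bases. *Nfkb2*, *Rel*, *Nfkbia*, *Nfkbie* and *Tnfaip3* carry matches, at positions −125 to −2, and *Rela* and *Nfkbib* carry none.

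Values are log2 intensities after RMA normalisation, and having 2 arrays per group limits their precision. Array medians lay between 3.88 and 3.97. *Mir155hg*, the host transcript of miR-155, read 1.70 and 2.00 in miR-155-/-(LPS + IL-10) against 2.14 and 2.19 in miR-155-/-(LPS), with 2.31 and 2.01 in WT(LPS + IL-10) against 2.73 and 4.02 in WT(LPS). It was below the array median on every array but that of WT(LPS) donor 2. The sources used here do not say where this probe set sits relative to the deletion, so it is no check of the labels. The 8 macrophage markers, among them *Adgre1* and *Csf1r*, read between 8.03 and 13.46 on every array. Of 11 fibroblast and stromal markers, 10 were highest in WT donor 1. Their summed linear level was 135 to 533 in miR-155-/-(LPS + IL-10) and 210 to 669 in miR-155-/-(LPS). In WT(LPS + IL-10) and WT(LPS) it was 13777 and 13667 for donor 1 and 361 and 336 for donor 2. Of 8 neutrophil markers, *S100a8* made up 94 to 98.9% of the summed level. That level was 5536 to 6230 under LPS + IL-10 and 1929 to 2156 under LPS alone for miR-155-/-, against 8351 to 8395 and 4401 to 4709 for WT. The summed level of 6 dendritic cell markers was 79.7 to 86.3 with IL-10 and 129 to 174 under LPS alone for miR-155-/-, against 80.3 to 94.8 and 131 to 197 for WT. *Itgax*, the brightest of them, averaged 5.47 with IL-10 and 6.75 under LPS alone for miR-155-/-, against 5.53 and 6.80 for WT. The others read at most 4.35 on any array and did not share a direction. *Flt3* averaged 2.65 with IL-10 and 2.39 under LPS alone for miR-155-/-, against 2.43 and 2.24 for WT. The neutrophil markers did not share an order of groups, and *Camp* averaged 5.39 in miR-155-/-(LPS + IL-10) against 6.06 in miR-155-/-(LPS), with 5.25 in WT(LPS + IL-10) against 5.42 in WT(LPS). T, NK and B cell markers read at most 4.71 on any array, and none is at 0 on this scale. The part of these markers in the results was not tested, and in bulk RNA more cells of a type and more RNA per cell cannot be told apart.

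All 9 genes had their highest mean in miR-155-/-(LPS). There both arrays lay above both WT(LPS) arrays for each of the 9, a pattern that 31.9% of the 8485 genes with a log2 mean from 6 upward showed. They also lay above both miR-155-/-(LPS + IL-10) arrays for each of the 9, against 33.9% of those genes. The share of genes with both patterns, or with their highest mean in miR-155-/-(LPS), was not counted. The next highest mean was that of miR-155-/-(LPS + IL-10) for 8 genes and of WT(LPS) for *Nfkbie*. WT(LPS + IL-10) was lowest for 6 genes and WT(LPS) for *Rela*, *Relb* and *Nfkbia*. The middle places were held by groups with overlapping arrays for *Nfkb2*, *Rel*, *Nfkbib*, *Nfkbie* and *Tnfaip3*, so their order is not set by these data. The same holds for the lowest place of *Rela*, *Nfkbia* and *Nfkbib*.

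**Figure D2:**
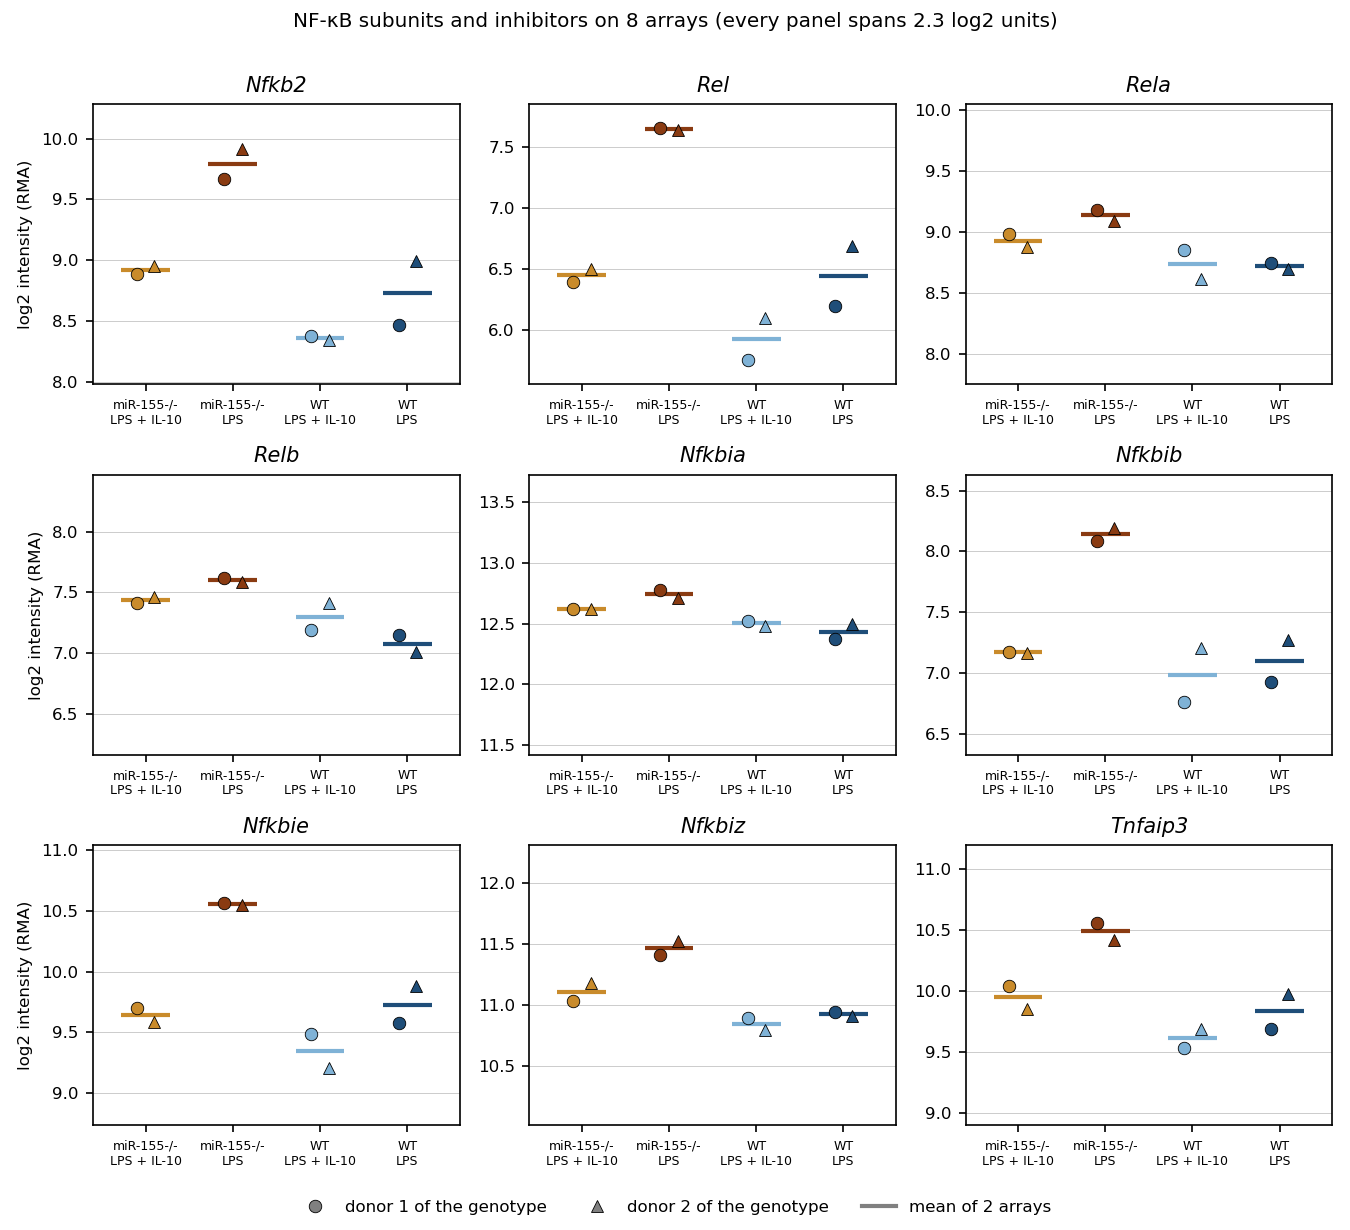
Log2 intensity (RMA) of 9 genes on 8 arrays, with a panel for each gene, donors as circles and triangles, and bars for the mean of 2 arrays; each panel spans the same range of log2 units around its own level. The miR-155-/-(LPS) arrays are the highest in every panel, by a wide gap for *Rel* and *Nfkbib* and a narrow gap for *Nfkbia*, *Rela* and *Relb*.

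To ask how the pathway differed between genotypes under LPS alone, miR-155-/-(LPS) was compared with WT(LPS). *Rel*, which encodes the c-Rel subunit, and *Nfkbib*, which encodes the inhibitor IκBβ, were higher in miR-155-/-(LPS) at an adjusted p under 0.05, by 2.31-fold and 2.06-fold, and the other 7 genes did not pass. That is 2 of 9, where 0.951% of all 45014 probe sets passed as higher. At an unadjusted p under 0.05 all 9 were higher, against 11.7% of the 8485 genes above. The median log2 fold change of the 9 was 0.66, against 0.020 over all probe sets tested. Without any 1 of the 8 arrays, none of the 9 passed (limma), with adjusted p up to 0.217 for *Rel* and 0.261 for *Nfkbib*, and without both arrays of WT donor 1 none passed either, while 7 passed where only probe sets with a log2 mean from 6 upward were tested. Without WT donor 1, all 9 log2 fold changes were still positive, from 0.24 for *Nfkbia* to 0.96 for *Rel*.

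To ask how IL-10 acted without miR-155, miR-155-/-(LPS + IL-10) was compared with miR-155-/-(LPS). *Rel*, *Nfkbib* and *Nfkbie*, which encodes the inhibitor IκBε, were lower with IL-10 at an adjusted p under 0.05, at 0.435 to 0.530 of the level under LPS alone, and 6 genes did not pass. That is 3 of 9, where 1.42% of all probe sets passed as lower. At an unadjusted p under 0.05, 6 of the 9 were lower, against 14.3% of the 8485 genes. The median log2 fold change was −0.54, against 0.0056 over all probe sets tested. None of the 9 passed without any 1 of the 4 miR-155-/- arrays, and 3 passed without any 1 of the 4 WT arrays, with *Nfkb2* in place of *Nfkbib* where the array left out was of WT(LPS). With no donor block none passed, and with probe sets of a log2 mean from 6 upward 6 did. The miR-155-/-(LPS) arrays enter both this comparison and the one before, so their values are not independent of each other.

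*Rel* had the widest range of group means. It read 6.40 and 6.50 in miR-155-/-(LPS + IL-10) against 7.66 and 7.65 in miR-155-/-(LPS), with 5.75 and 6.10 in WT(LPS + IL-10) against 6.20 and 6.69 in WT(LPS) on its only probe set. Its miR-155-/-(LPS) arrays stood apart from the other 6, and its miR-155-/-(LPS + IL-10) arrays lay within the range of WT(LPS). The log2 fold change in miR-155-/-(LPS) over WT(LPS) was 1.21 ± 0.19 (SE), or 2.31-fold (adjusted p = 0.0361). That in miR-155-/-(LPS + IL-10) over miR-155-/-(LPS) was −1.20 ± 0.16 (adjusted p = 0.0160), which left 0.435 of the level.

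*Nfkb2* encodes a precursor that restrains RelB dimers until it is trimmed to a DNA-binding subunit. It read 8.88 and 8.95 in miR-155-/-(LPS + IL-10) against 9.67 and 9.92 in miR-155-/-(LPS), with 8.38 and 8.34 in WT(LPS + IL-10) against 8.47 and 8.99 in WT(LPS). The miR-155-/-(LPS) arrays were again the highest, but both differences fell just short of the threshold. They were 1.06 ± 0.20 over WT(LPS) (adjusted p = 0.0575) and −0.88 ± 0.17 with IL-10 (adjusted p = 0.0506). A second probe set gave 0.38 and −0.34 in the same comparisons.

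*Rela* encodes p65, which forms the main activating dimer after LPS. It read 8.98 and 8.87 in miR-155-/-(LPS + IL-10) against 9.18 and 9.09 in miR-155-/-(LPS), with 8.86 and 8.61 in WT(LPS + IL-10) against 8.74 and 8.69 in WT(LPS). All miR-155-/- arrays lay above all WT arrays by a narrow margin, and its differences were 0.42 ± 0.14 over WT(LPS) (adjusted p = 0.233) and −0.21 ± 0.12 with IL-10 in miR-155-/- cells (adjusted p = 0.441). *Relb*, the subunit of the slower non-canonical branch, read 7.41 and 7.46 in miR-155-/-(LPS + IL-10) against 7.62 and 7.58 in miR-155-/-(LPS), with 7.19 and 7.41 in WT(LPS + IL-10) against 7.15 and 7.01 in WT(LPS). No neighbouring groups overlapped, though miR-155-/-(LPS + IL-10) and WT(LPS + IL-10) came within rounding of each other. Its difference of 0.52 ± 0.14 between genotypes under LPS did not pass (adjusted p = 0.155), nor did that of −0.17 ± 0.12 with IL-10 in miR-155-/- cells (adjusted p = 0.567).

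Among the inhibitors, *Nfkbib* alone passed in both comparisons. It read 7.18 and 7.17 in miR-155-/-(LPS + IL-10) against 8.09 and 8.19 in miR-155-/-(LPS), with 6.76 and 7.21 in WT(LPS + IL-10) against 6.93 and 7.27 in WT(LPS). Only the miR-155-/-(LPS) arrays exceeded 8, and the other 3 groups overlapped. It was 2.06-fold higher in miR-155-/-(LPS), set against WT(LPS) (log2 1.04 ± 0.18, adjusted p = 0.0473) and fell with IL-10 in miR-155-/- cells (log2 −0.97 ± 0.16, adjusted p = 0.0289). A second probe set of this gene, at most 4.23 on any array, gave 0.33 and −0.46.

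*Nfkbie* read 9.70 and 9.58 in miR-155-/-(LPS + IL-10) against 10.57 and 10.55 in miR-155-/-(LPS), with 9.49 and 9.21 in WT(LPS + IL-10) against 9.57 and 9.88 in WT(LPS). The miR-155-/-(LPS + IL-10) arrays lay within the span of WT(LPS). It was lower with IL-10 in miR-155-/- cells (log2 −0.92 ± 0.15, adjusted p = 0.0311), while the difference between genotypes under LPS, 0.83 ± 0.17, did not pass (adjusted p = 0.0822). From a second probe set these were −0.62 and 0.78, and neither passed.

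*Nfkbia* encodes IκBα, the inhibitor that is resynthesised fastest after activation. It read 12.62 and 12.62 in miR-155-/-(LPS + IL-10) against 12.77 and 12.71 in miR-155-/-(LPS), with 12.52 and 12.48 in WT(LPS + IL-10) against 12.37 and 12.50 in WT(LPS). All 8 values lay within a narrow band, and the differences of 0.31 ± 0.12 between genotypes under LPS (adjusted p = 0.334) and −0.12 ± 0.11 with IL-10 in miR-155-/- cells (adjusted p = 0.639) were the smallest of the 9. Its 4 other probe sets gave larger differences between genotypes, 0.46 to 0.82, and a single one of them passed. That one read 10.72 and 10.58 in miR-155-/-(LPS + IL-10) against 11.04 and 10.95 in miR-155-/-(LPS), with 10.10 and 10.25 in WT(LPS + IL-10) against 10.23 and 10.11 in WT(LPS), with all miR-155-/- arrays above all WT arrays (log2 0.82 ± 0.14, adjusted p = 0.0417). The probe sets of *Nfkbia* therefore gave different sizes for the same comparison.

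*Nfkbiz* encodes IκBζ, a nuclear member of the family that helps switch on secondary LPS response genes. It read 11.03 and 11.17 in miR-155-/-(LPS + IL-10) against 11.41 and 11.52 in miR-155-/-(LPS), with 10.89 and 10.79 in WT(LPS + IL-10) against 10.94 and 10.90 in WT(LPS). Arrays of the genotypes did not overlap, and WT arrays differed little. The differences of 0.54 ± 0.13 between genotypes under LPS (adjusted p = 0.105) and −0.36 ± 0.11 with IL-10 in miR-155-/- cells (adjusted p = 0.151) did not pass. Its 2 other probe sets gave 0.64 ± 0.15 (adjusted p = 0.116) and 1.12 ± 0.20 (adjusted p = 0.0507) between genotypes, and −0.20 ± 0.13 (adjusted p = 0.504) and −0.78 ± 0.17 (adjusted p = 0.0714) with IL-10 in miR-155-/- cells.

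*Tnfaip3* encodes a ubiquitin-editing enzyme that shuts off signalling upstream of IKK. It read 10.04 and 9.85 in miR-155-/-(LPS + IL-10) against 10.56 and 10.42 in miR-155-/-(LPS), with 9.53 and 9.68 in WT(LPS + IL-10) against 9.69 and 9.98 in WT(LPS). The miR-155-/-(LPS) arrays stood clear of the rest, and miR-155-/-(LPS + IL-10) overlapped WT(LPS). Its differences were 0.66 ± 0.15 between genotypes under LPS (adjusted p = 0.104) and −0.54 ± 0.13 with IL-10 in miR-155-/- cells (adjusted p = 0.0912). Over the 10 other probe sets of 6 genes, every difference in these 2 comparisons had the sign of the brightest probe set of its gene.

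Under LPS + IL-10 the log2 fold changes between genotypes were smaller for all 9 genes. This narrowing, the same contrast as the difference of the IL-10 effect below, passed for none (limma, adjusted p 0.331 to 0.685). In miR-155-/-(LPS + IL-10) over WT(LPS + IL-10), none of the 9 genes passed (limma), where 0.0378% of probe sets passed as higher. At an unadjusted p under 0.05, 2 of the 9 were higher, against 7.41% of the 8485 genes. The arrays did not overlap for 8 of the 9, all but *Nfkbib*, against 28.8% of the 8485 genes. The median log2 fold change was 0.26, against 0.025 over all probe sets tested. *Nfkb2* (0.56 ± 0.20, adjusted p = 0.482) and *Rel* (0.53 ± 0.19, adjusted p = 0.485) had the largest differences and *Nfkbia* the smallest (0.12 ± 0.12, adjusted p = 0.805). Of the 10 other probe sets, 1 had the opposite sign to the brightest of its gene, the second of *Nfkb2* (−0.031).

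In WT BMDM the log2 fold changes with IL-10 ran from −0.52 to 0.22. Set against WT(LPS), WT(LPS + IL-10) gave no call among the 9 (limma), where 0.0311% of probe sets passed in either direction. At an unadjusted p under 0.05, 2 of the 9 were lower, against 5.63% of the 8485 genes. The arrays lay below those of WT(LPS) without overlap for 5 of the 9, against 21.9% of the 8485 genes, and for *Relb* above them. The largest differences were those of *Rel* (−0.52 ± 0.16, adjusted p = 0.434), *Nfkbie* (−0.38 ± 0.15, adjusted p = 0.515) and *Nfkb2* (−0.37 ± 0.17, adjusted p = 0.562). Leaving out 1 array moved them to between −0.73 and −0.31 for *Rel*, −0.57 and −0.20 for *Nfkbie* and −0.63 and −0.10 for *Nfkb2*, and without both arrays of WT donor 1 they were −0.59, −0.68 and −0.65. *Rela*, *Relb* and *Nfkbia* had positive values of 0.017, 0.22 and 0.069, and the median over the 9 was −0.11. Of the 10 other probe sets, 3 had the opposite sign to the brightest of their gene, among them the second of *Nfkb2* (0.068).

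The IL-10 effect was more negative in miR-155-/- than in WT cells for all 9 genes, but none of these differences passed (limma), where 0.0333% of probe sets passed as lower. At an unadjusted p under 0.05, 3 of the 9 were lower, against 5.49% of the 8485 genes. The difference was −0.85 ± 0.22 for *Nfkbib* (adjusted p = 0.331, 95% interval −1.38 to −0.33), −0.68 ± 0.23 for *Rel* (adjusted p = 0.423) and −0.53 ± 0.22 for *Nfkbie* (adjusted p = 0.467). Of the 10 other probe sets, 9 had the sign of the brightest, with −0.00104 for *Tnfaip3* and −0.00403 for 1 of *Nfkbiz* closest to no difference. The dim second probe set of *Nfkbib* went the other way (0.20), with IL-10 at −0.46 in miR-155-/- and −0.67 in WT cells. By donor, IL-10 changed *Nfkbib* by −0.91 and −1.03 in the 2 miR-155-/- donors and by −0.16 and −0.066 in the 2 WT donors. For *Rel* the changes were −1.26 and −1.14 in miR-155-/- donors and −0.45 and −0.59 in WT donors, so each donor moved the same way. For *Nfkb2* they were −0.79 and −0.97 in miR-155-/- donors and −0.092 and −0.65 in WT donors, where WT donor 1, with the high stromal markers, moved least. *Nfkbie* showed the same split, at −0.87 and −0.96 in miR-155-/- donors and −0.089 and −0.68 in WT donors. WT donor 1 also moved less than WT donor 2 for *Rel*, *Relb*, *Nfkbiz* and *Tnfaip3*, but more for *Rela*, *Nfkbia* and *Nfkbib*. Any part of the stromal markers in these differences was not tested.

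**Figure D3:**
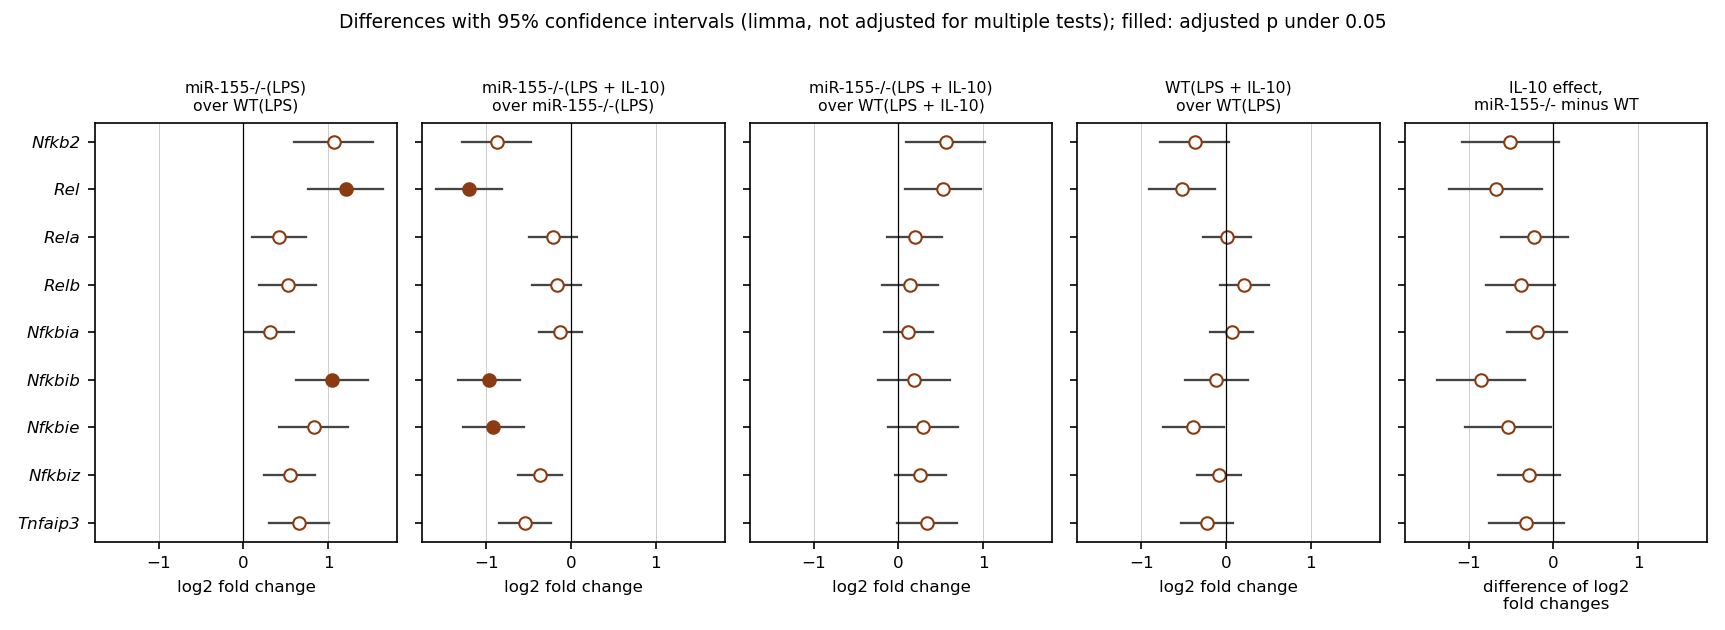
Log2 fold change of 9 genes (points) with 95% confidence intervals from limma (lines, not adjusted for multiple tests) in 4 comparisons, with the IL-10 effect of miR-155-/- minus that of WT in the panel at the right; filled points have an adjusted p under 0.05. Filled points are *Rel* and *Nfkbib* in the first panel and *Rel*, *Nfkbib* and *Nfkbie* in the second, and no point is filled in the other 3.

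The 3 lists that follow are set beside the shares of all 45014 probe sets that passed. In miR-155-/-(LPS) over WT(LPS) these were 0.951% as higher and 0.513% as lower. With IL-10 in miR-155-/- cells 1.42% passed as lower. The kinases and adaptors upstream of IκB were read next. Of 21 such genes 17 were measured. In miR-155-/-(LPS) over WT(LPS), 2 were higher and 15 did not pass. They were *Irak2*, a kinase of the Toll-like receptor complex (log2 1.08 ± 0.16, adjusted p = 0.0318), and *Traf2*, a ubiquitin ligase adaptor of TNF receptors (0.91 ± 0.15, adjusted p = 0.0403). With IL-10 in miR-155-/- cells both were lower, *Irak2* at −1.09 ± 0.14 (adjusted p = 0.0133) and *Traf2* at −0.81 ± 0.13 (adjusted p = 0.0263), as was *Birc2*, an inhibitor of apoptosis that ubiquitinates pathway components (−0.69 ± 0.12, adjusted p = 0.0395), and 14 did not pass. The list's median was 0.39 in the first comparison and −0.32 in the second. *Ikbke*, an IKK-related kinase described as a miR-155 target, had 0.46 (adjusted p = 0.316) and −0.40 (adjusted p = 0.25), and *Tab2*, an adaptor of the kinase TAK1 and another described target, had 0.21 (adjusted p = 0.511) and −0.012 (adjusted p = 0.975).

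The ubiquitin machinery and other inhibitors made up 18 genes, of which 17 were measured. *Tnip1*, a partner of the *Tnfaip3* product, was the only one that passed in miR-155-/-(LPS) over WT(LPS) (0.97 ± 0.16, adjusted p = 0.0444), and 16 did not. It was lower with IL-10 in miR-155-/- cells (−0.79 ± 0.14, adjusted p = 0.0391), as was *Btrc*, the subunit that brings phosphorylated IκB to its ubiquitin ligase (−0.63 ± 0.12, adjusted p = 0.0448), and 15 did not pass. The medians were 0.34 and −0.22. *Bcl3*, a nuclear IκB relative, read 9.12 and 9.37 in miR-155-/-(LPS + IL-10) against 9.62 and 9.67 in miR-155-/-(LPS), with 9.24 and 9.51 in WT(LPS + IL-10) against 8.88 and 9.35 in WT(LPS). By donor, IL-10 minus LPS was −0.50 and −0.30 in miR-155-/- and 0.36 and 0.16 in WT, but the contrast of these effects, −0.66 ± 0.23, did not pass (adjusted p = 0.430). *Nfkbid*, another nuclear relative, had −0.84 ± 0.19 with IL-10 in miR-155-/- cells (adjusted p = 0.0729).

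Of 28 target genes 27 were measured, and their changes spanned a wider range than those of the subunits and inhibitors. In miR-155-/-(LPS) over WT(LPS), 6 were higher, 1 was lower and 20 did not pass, with a median of 0.62. The higher ones included the chemokine *Cxcl10* (3.39 ± 0.29, adjusted p = 0.00607), the signalling adaptor *Traf1* (2.22 ± 0.23, adjusted p = 0.0109), the costimulatory receptor *Cd40* (1.75 ± 0.21, adjusted p = 0.0153) and the adhesion ligand *Icam1* (1.06 ± 0.13, adjusted p = 0.0188). The cytokine subunit gene *Il12b* was among the 6 (1.33 ± 0.21, adjusted p = 0.0348), and *Ptgs2*, the inducible cyclooxygenase, completed them (1.5 ± 0.25, adjusted p = 0.0421). The lower one was the adhesion molecule *Vcam1* (−2.57 ± 0.42, adjusted p = 0.0417). Without both arrays of WT donor 1, 4 of the targets (*Cxcl10*, *Il6*, *Ptgs2* and *Traf1*) and none of the other 2 lists passed. With IL-10 in miR-155-/- cells 10 were lower and 17 did not pass, with a median of −0.62. They included *Cxcl10* (−3.53 ± 0.26, adjusted p = 0.00251), *Traf1* (−2.37 ± 0.20, adjusted p = 0.00382), *Cd40* (−1.41 ± 0.18, adjusted p = 0.0129), *Ebi3*, a subunit of IL-27 (−0.86 ± 0.12, adjusted p = 0.0148), and the cytokines *Il6* (−5.54 ± 0.87, adjusted p = 0.0257) and *Tnf* (−1.04 ± 0.16, adjusted p = 0.0267). *Cxcl10* alone of these calls in the 3 lists passed with IL-10 in miR-155-/- cells without each of the 8 arrays in turn (adjusted p up to 0.0336), and every other call ended without at least 1 array. Of the 61 measured genes in the 3 lists, none passed for IL-10 in WT cells (limma; at an unadjusted p under 0.05, 4 were higher and 10 lower). None passed between genotypes under LPS + IL-10 either (limma, with 15 higher and 2 lower at that level). Among the 8485 genes, 5.63% were lower at that level for IL-10 in WT and 7.41% higher between genotypes under LPS + IL-10. Shares for the opposite directions are not given here, and some of the 61 genes have a log2 mean below 6. Nearest to passing in WT cells was *Cxcl10*, with −2.35 ± 0.26 (adjusted p = 0.0604) and changes of −2.31 and −2.39 in the 2 donors. Other settings let up to 3 targets and 1 upstream gene pass for IL-10 in WT cells, and up to 4 targets between genotypes under LPS + IL-10.

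**Figure D4:**
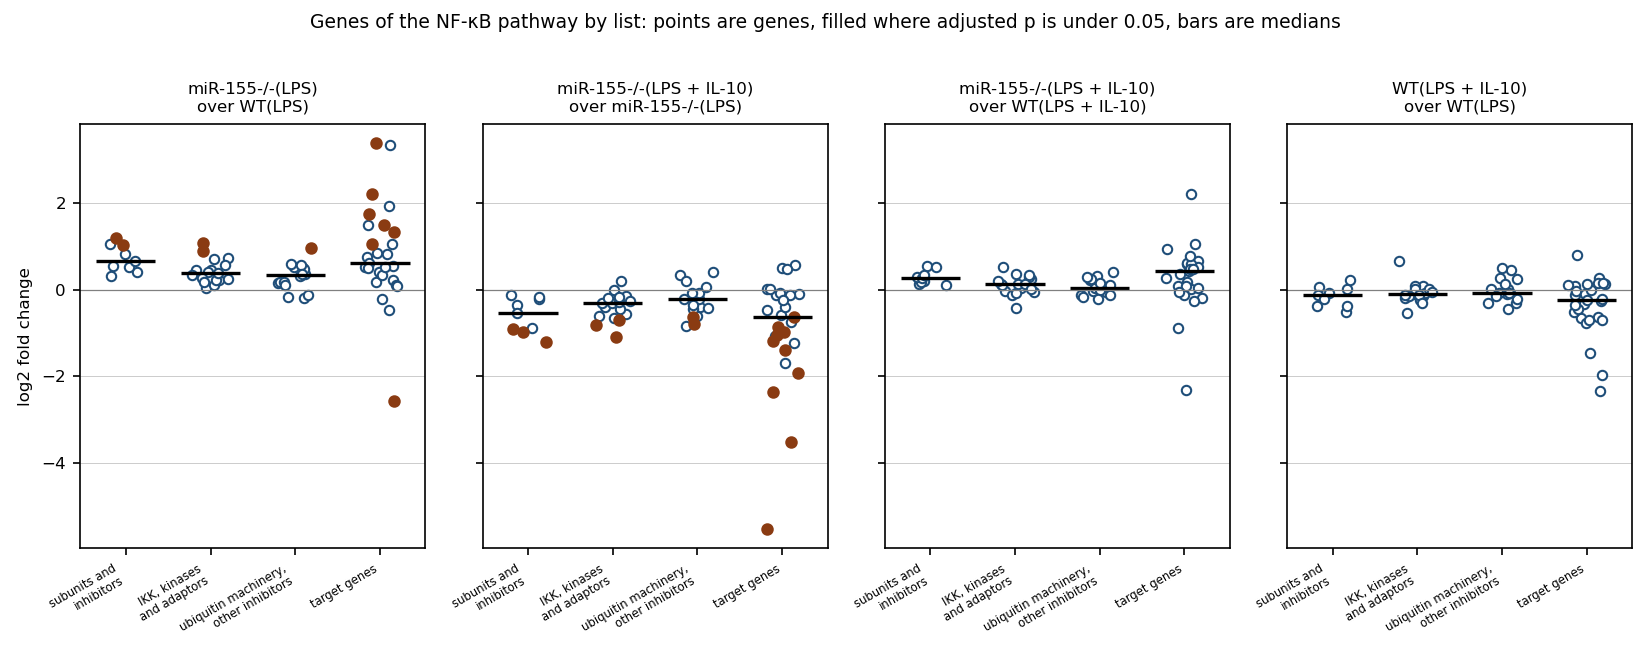
Log2 fold change of single genes (points) in 4 lists of the NF-κB pathway and 4 comparisons, filled at an adjusted p under 0.05, with bars for list medians. In miR-155-/-(LPS) over WT(LPS) the medians are 0.66, 0.39, 0.34 and 0.62 from left to right, and in miR-155-/-(LPS + IL-10) over miR-155-/-(LPS) they are −0.54, −0.32, −0.22 and −0.62; the miR-155-/-(LPS) arrays enter both panels.

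The genes whose pattern lay nearest to those of *Rel* and *Nfkb2*, the 2 members with the widest range, were sought among 8484 others, by the root mean square difference of centred log2 values over the 8 arrays. For *Rel* they were *Irgm2*, an interferon-induced GTPase (0.102), *Gch1*, which makes the cofactor of nitric oxide synthase (0.104), and *Irak2* (0.109). For *Nfkb2* they were *Syk*, a kinase of immune receptors (0.119), *Irak2* (0.129) and *4833438C02Rik* (0.131). *Irak2*, near to both, read 8.11 and 7.97 in miR-155-/-(LPS + IL-10) against 9.11 and 9.15 in miR-155-/-(LPS), with 7.48 and 7.56 in WT(LPS + IL-10) against 7.86 and 8.25 in WT(LPS). Its miR-155-/-(LPS) arrays were the highest and its WT(LPS + IL-10) arrays the lowest, as for *Rel*, while the other 2 groups overlapped. The arrays come from 4 donors and share them between treatments, so the likeness is given as a description.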

How the data were processed

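RNA of 8 BMDM cultures was measured on Affymetrix arrays for the mouse genome, with NuGEN kits for amplification and labelling. The authors deposited log2 values, made with RMA in the affy package (background correction, quantile normalization, 1 value per probe set); no version is named in the sources used here. RMA pulls array distributions together, so a shift common to most genes would not be seen, and a dim probe set understates a change. Symbols came from the array annotation: of 45101 probe sets, 34958 had 1 symbol, 932 several and 9211 none, and the Entrez ID of 34754 was in the RefSeq table (GRCm38.p6). After 64 controls and 23 probe sets for Y-linked genes or *Xist* had been removed, 45014 were tested. Other X-linked genes stayed in.

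All 8 arrays entered limma 3.58.1 (R 4.3.3) with group means as coefficients and the mouse donor as a random block (duplicateCorrelation, consensus 0.240), as in the study's methods. Arrays of 1 donor were paired through genotype and replicate number in the labels, and their deviations from group means correlated at r = 0.754 (WT) and 0.230 (miR-155-/-). P-values were adjusted by Benjamini-Hochberg over all probe sets tested and called under 0.05. The fit was tested on simulated data. Members and lists were chosen with earlier results of these data known. The named genes were all members, pathway genes that passed (at most the 6 with the lowest p per list and comparison), *Bcl3*, *Nfkbid*, *Ikbke* and *Tab2*, and the 3 genes nearest in pattern to each of 2 members. *Traf3*, *Chuk* and 4 other listed genes had no probe set of their own. Alternatives were no block, donors as fixed terms, only the arrays compared, array weights, an intensity trend with robust hyperparameters, testing of probe sets with a log2 mean from 6 upward, median centring, a second quantile normalization, means over probe sets, each array left out, and WT donor 1 left out. Donors as fixed terms were fitted only for the IL-10 effects and their difference between genotypes. Where too few arrays were left to estimate the donor correlation, that of the whole fit was used. Plots were drawn with matplotlib 3.10.9 in Python 3.11.15.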

Additional observations from a re-analysis of the deposited data

Results flagged for a closer look

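*Relb* and *Bcl3* had IL-10 effects of opposite sign in the 2 genotypes. The log2 change of *Relb* was −0.21 and −0.12 in the 2 miR-155-/- donors and 0.041 and 0.40 in the 2 WT donors. The difference of the IL-10 effect, miR-155-/- minus WT, was −0.39 ± 0.17 (SE) and did not pass the test (limma, adjusted p = 0.50). For *Bcl3*, whose donor values stand above, that difference was −0.66 ± 0.23 and did not pass either (limma, adjusted p = 0.430). The search for genes with each donor of a genotype going against each donor of the other covered the 9 subunits and inhibitors and 20 pathway genes, those that passed in any comparison with *Bcl3*, *Nfkbid*, *Ikbke* and *Tab2*. Over all 61 measured pathway genes, 6 had this pattern: *Bcl3*, *Ccl3*, *Cxcl2*, *Itch*, *Map3k14* and *Zc3h12a*. The share of all genes on the array with this pattern was not counted, so *Relb* and these 6 are given as a description.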

How the results depend on the processing

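Of 783 values of single genes under 18 alternatives (45 results), 708 kept their direction and their side of the threshold, 41 kept the direction but no longer passed, 27 came to pass and 7 changed sign. Set against the 2 genes that passed between genotypes under LPS, 1 (*Rel*) passed with no replicate block, with arrays centred on their medians or with a second quantile normalization, and 0 passed with only the arrays compared or without both arrays of WT donor 1. With a log2 mean from 6 upward, which tests fewer probe sets, 7 passed (all but *Rela* and *Nfkbia*), and with an intensity trend and robust hyperparameters 6. With 1 array left out the number was 0 in every case. Set against the 3 genes lower with IL-10 in miR-155-/- cells, 0 passed with no replicate block and 1 (*Rel*) under the methods' selection, a log2 change beyond 1 with p under 0.05 before adjustment, which gave 3 (*Nfkb2*, *Nfkbib* and *Rel*) between genotypes under LPS. Under array weights or means over probe sets 5 passed, under the filter or the trend 6, and with 1 array left out 0 to 3. With the donor as a fixed replicate block 3 passed. The counts of 0 for the IL-10 effect in WT and for the difference of the IL-10 effect stayed 0 with that block and with none. Between genotypes under LPS + IL-10 the count of 0 stayed with no block, and the fixed block was not fitted there. Without both arrays of WT donor 1, *Rela* and *Nfkbia* changed sign for IL-10 in WT (−0.080 and −0.013), as did *Nfkbib* between genotypes under LPS + IL-10 (−0.034). With 1 array left out, *Rela* (−0.10 to 0.13) and *Nfkbib* (−0.30 to 0.074) changed sign for IL-10 in WT, and *Nfkbib* (−6.36e-04 to 0.37) between genotypes under LPS + IL-10. The cause of these changes was not tested. Dim probe sets, such as the second ones of *Nfkbib* and *Tnfaip3*, limit what can be read from them.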
